A study of Homo sapiens with 24 samples.

Results

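The genes described here are 9 genes of MHC class I antigen presentation, HLA-B, HLA-C, B2M, TAP1, TAP2, TAPBP, PSMB8, PSMB9 and NLRC5. They were picked by name from the 14408 genes listed in any of the 3 count tables of the series, and all 9 were listed in each table and passed the filter on low counts in each comparison. Polyadenylated RNA was sequenced from Panc-1 cells, a human pancreatic carcinoma line, in 24 libraries that fell into 6 groups of 4. Tet-One cells carried the empty doxycycline-inducible plasmid, Tet-MIST1 cells carried rat MIST1 in it, and Tet-PTF1a cells carried mouse PTF1a, both with a myc tag. MIST1 and PTF1a are bHLH transcription factors of the pancreatic acinar cell. In each line 4 Control libraries came from untreated cells and 4 Dox libraries from cells given doxycycline at 1 µg/ml for 72 h. All 6 groups were grown in medium with tetracycline-depleted serum after puromycin selection. Individual clones of each line were screened for induction, and the methods do not say how many clones gave these libraries. The passage number was 33 for Tet-MIST1 and 32 for both other lines. The study's methods call the 4 replicates biological, but the labels do not say whether the libraries of a group came from separate cultures, so the p-values measure only the spread between these libraries, which may be technical.

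MHC class I molecules show peptides from inside the cell to CD8+ T cells. A heavy chain such as HLA-B or HLA-C pairs with the light chain beta-2 microglobulin (B2M), and TAP1 and TAP2 form the transporter that carries peptides into the ER, where tapasin (TAPBP) helps to load them. PSMB8 and PSMB9 replace constitutive catalytic subunits of the proteasome to form the immunoproteasome that cuts such peptides, NLRC5 is a transcriptional activator of class I genes, and interferon raises most of these genes in many cell types.

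The total count per library ranged from 17210989 to 43018494. In Tet-PTF1a cells PTF1A had 0 to 2 counts in the Control libraries and 53 to 168 in the Dox libraries, while the MIST1 gene BHLHA15 was not listed in the Tet-MIST1 table, so that the induction of the rat transgene was not checked there. The leukocyte markers PTPRC, CD3E and LYZ, the endothelial markers PECAM1 and CDH5 and the class II gene HLA-DRA were not listed in any table, and the Panc-1 markers KRT8, KRT18 and VIM were each above 491 CPM (counts relative to library size, TMM-scaled) in every library. The 6 Panc-1 markers, with KRT19, KRT7 and EPCAM, were not uniform between lines. At an FDR under 0.05 (edgeR), Tet-MIST1 Control had 5 lower and 1 higher than Tet-One Control (log2 -3.43 to 1.63). Tet-PTF1a Control had 4 lower and 1 higher (-1.52 to 0.78). Of all genes 81.7% and 80.1% passed in these comparisons. Dox replicate 1 of Tet-One stood apart from the other libraries. Each library was set against the mean of the remaining libraries of its group. The genes of Tet-One Dox replicate 1 deviated from that mean with an SD of 0.56 on the log2 scale, against 0.07 to 0.22 in the other 23 libraries. Relative to the same mean its short genes were higher than its long genes by 1.37 log2 units. The results that rest on this library are given with and without it.

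The 7 members on chromosome 6 lie in the MHC region, and the count tables listed each of them on the hg19 chromosome and again on alternative haplotype sequences of that region. HLA-B (chr6:31321649-31324989, - strand) was listed on 6 sequences in all and HLA-C (chr6:31236526-31239913, -) on 7. TAP1 (chr6:32812986-32821748, -), TAP2 (chr6:32789610-32806600, -), PSMB8 (chr6:32808494-32812712, -) and PSMB9 (chr6:32821938-32827628, +) were each listed on 8 and TAPBP (chr6:33267472-33282164, -) on 5. B2M (chr15:45003685-45010357, +) and NLRC5 (chr16:57050986-57117436, +) were listed on 1. The listed exon length of HLA-B was therefore 9432 bases against 1572 on chromosome 6 alone. How reads that align to several of these copies were counted is not given in the sources used here, and reads of HLA-B and HLA-C can also align to each other. PSMB8 overlaps the antisense gene PSMB8-AS1, and the use of strand in counting is not given either, so that reads of these 2 genes cannot be told apart. Levels of the chromosome 6 genes are thus less certain than those of B2M and NLRC5, although 1 counting rule within a table applied to Control and Dox alike.

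Promoter sequences were taken from RefSeq on GRCh38.p14, which held entries for 8 of the 9 members. The 250 bases before the start are shown for B2M and TAPBP, which differed between Dox and Control in Tet-PTF1a cells, for HLA-B and HLA-C, which did not pass the test there, and for TAP1, with capitals marking matches to the motifs named after them. The windows are chr15:44711267-44711516 (+) for B2M, chr6:33314079-33314328 (-) for TAPBP, chr6:31357180-31357429 (-) for HLA-B, chr6:31272093-31272342 (-) for HLA-C and chr6:32853705-32853954 (-) for TAP1, and each is written 5′ to 3′ on the strand of its gene.
B2M: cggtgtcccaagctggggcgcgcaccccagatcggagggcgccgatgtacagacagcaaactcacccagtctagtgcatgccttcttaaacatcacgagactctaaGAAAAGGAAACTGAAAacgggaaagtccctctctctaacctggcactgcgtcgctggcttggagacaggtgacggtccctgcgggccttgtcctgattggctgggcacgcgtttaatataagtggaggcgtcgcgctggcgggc
TAPBP: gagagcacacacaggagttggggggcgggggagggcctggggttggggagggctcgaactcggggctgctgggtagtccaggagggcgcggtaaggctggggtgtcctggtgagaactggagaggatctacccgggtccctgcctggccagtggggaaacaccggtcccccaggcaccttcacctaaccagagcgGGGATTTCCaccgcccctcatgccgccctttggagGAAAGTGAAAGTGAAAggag
HLA-B: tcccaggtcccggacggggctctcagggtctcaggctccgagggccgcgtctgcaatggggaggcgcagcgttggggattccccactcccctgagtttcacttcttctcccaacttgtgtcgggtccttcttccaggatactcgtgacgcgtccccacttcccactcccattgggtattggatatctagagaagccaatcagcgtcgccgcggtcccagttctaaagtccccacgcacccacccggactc
HLA-C: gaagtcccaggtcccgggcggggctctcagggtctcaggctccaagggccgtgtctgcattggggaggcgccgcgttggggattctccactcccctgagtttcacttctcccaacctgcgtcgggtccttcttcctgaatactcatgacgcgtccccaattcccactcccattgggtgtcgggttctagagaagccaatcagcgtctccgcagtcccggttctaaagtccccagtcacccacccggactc
TAP1: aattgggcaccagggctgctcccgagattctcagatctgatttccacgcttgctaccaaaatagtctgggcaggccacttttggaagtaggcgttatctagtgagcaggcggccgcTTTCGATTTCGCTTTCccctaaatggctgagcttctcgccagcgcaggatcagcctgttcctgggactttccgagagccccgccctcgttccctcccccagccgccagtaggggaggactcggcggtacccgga
The motifs were searched on both strands as exact patterns, so that variant forms of these sites were not counted. A strict core of the interferon-stimulated response element, a pair of TTTC repeats with 2 bases between them, was found in 4 of the 8 members with an entry (B2M, TAP1, TAP2 and TAPBP) and in 3.02% of all 35116 promoter windows of the same length, and in B2M, TAP1 and TAPBP it matched at overlapping positions. The HLA-B and HLA-C windows hold TTTCACTTCT, which is close to this pattern but does not match it. A window without a match can thus still hold such an element. GGGANTTCC, 1 form of the kappa B motif, was matched in TAPBP alone and in 1.59% of all windows. Close forms that do not match it stand in other windows. These are GGGACTTTCC in TAP1, its reverse complement GGAAAGTCCC in B2M, GGGGATTCCCC in HLA-B and GGGGATTCTCC in HLA-C. A window without a match can thus still hold a kappa B site. The E-box CANNTG, which bHLH proteins bind, was found in B2M, PSMB8 and PSMB9 and in 61.8% of all windows (it is not marked in capitals), and CAGCTG, one form of it, was found in none of the 8 and in 14.0% of all windows. TGGGAAA, the RBPJ motif of the PTF1 complex, was found in the window of PSMB9 and in the second listed window of TAP1 and in 6.88% of all windows. The cyclic AMP response element TGACGTCA was found in none of the 8 members and in 1.65% of all windows. TAP1 and PSMB9 start in opposite directions 488 bases apart. The HLA-B and HLA-C windows were identical at 89.0% of 254 aligned positions.

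Per length of exon on the main chromosome, the levels of the members spanned a wide range, which carries the uncertainty of the counted copies. In Tet-One Control libraries B2M stood at 387 CPM per kb, HLA-C at 55.7, TAPBP at 40.6 and HLA-B at 22.9 (means, n = 4). TAP2 and TAP1 stood at 10.9 and 9.13 CPM per kb, PSMB8 at 3.98, PSMB9 at 3.02 and NLRC5 at 0.382. The light chain was thus the most abundant of the 9 members and the activator NLRC5 the least, in this group. NLRC5 had only 39 to 207 counts in a library, so that its values are the least precise.

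**Figure D1:**
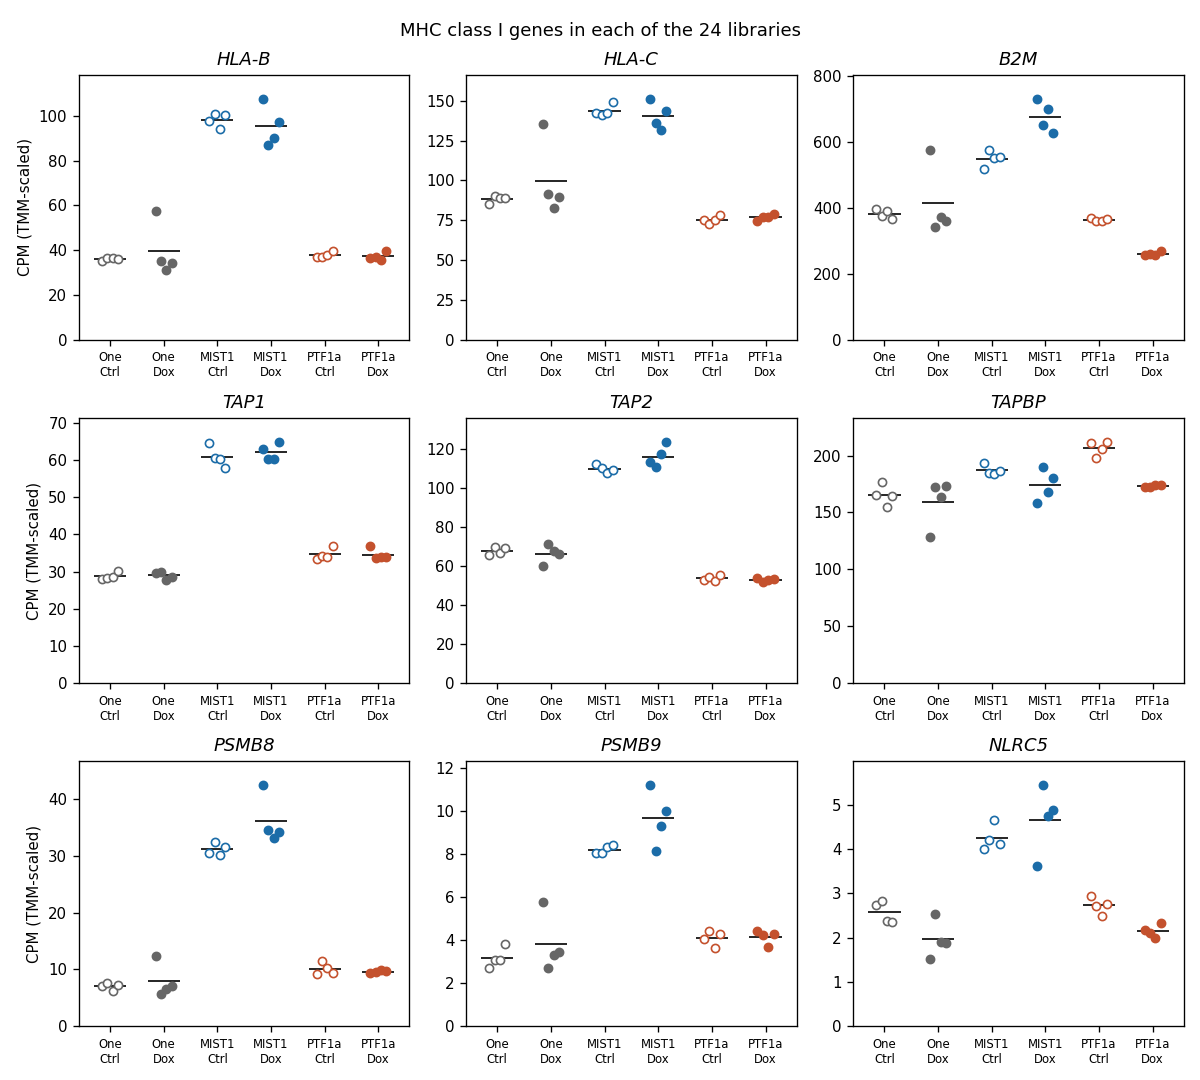
CPM (TMM-scaled over all 24 libraries) of the 9 genes, with 1 point per library in replicate order, open points for Control, filled points for Dox and a line at the group mean. The Tet-MIST1 libraries sit above those of both other lines for every gene but TAPBP, apart from Tet-One Dox replicate 1 for B2M and HLA-C, B2M is lower with Dox in Tet-PTF1a (256 to 270 CPM against 359 to 370), and Tet-One Dox replicate 1 lies far from the other 3 for several genes.

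In Tet-PTF1a cells the light chain, tapasin and NLRC5 fell with Dox, while both heavy chains, the transporter and the immunoproteasome subunits differed by at most 0.03 on the log2 scale and were not called. B2M was at 370, 360, 359 and 368 CPM in Control replicates 1 to 4 and at 257, 259, 256 and 270 CPM in Dox replicates 1 to 4. All 4 Dox libraries lay below all 4 Control libraries. B2M fell by 0.48 (SE 0.02) on the log2 scale, to 0.717 of its Control level (FDR 1.97e-24 after Benjamini-Hochberg adjustment, by the quasi-likelihood test in edgeR). In bulk RNA, fewer cells with a transcript and less transcript per cell cannot be told apart.

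TAPBP, which bridges the class I molecule to the transporter, was at 211, 198, 206 and 212 CPM in the Control and at 172, 172, 175 and 174 CPM in the Dox libraries of Tet-PTF1a. The groups did not overlap, and TAPBP fell by 0.25 (SE 0.02) on the log2 scale (FDR 7.35e-13, edgeR). NLRC5 was at 2.94, 2.71, 2.49 and 2.75 CPM with Control and at 2.16, 2.10, 1.99 and 2.33 CPM with Dox. These groups did not overlap either, and NLRC5 fell by 0.34 (SE 0.13, FDR 0.0303, edgeR). The NLRC5 call did not hold in DESeq2 (FDR 0.102), with library size scaling (FDR 0.0529), in 1 fit of all 24 libraries (FDR 0.0997), or without Control replicate 1 (FDR 0.0999), Control replicate 4 (FDR 0.0517), Dox replicate 2 (FDR 0.0621) or Dox replicate 3 (FDR 0.0731). The calls of B2M and TAPBP held under every alternative run.

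Of the heavy chains, HLA-B was at 36.8, 37.1, 37.6 and 39.5 CPM with Control and at 36.5, 37.1, 35.6 and 39.5 CPM with Dox in Tet-PTF1a. The difference of -0.01 had a 95% interval of -0.09 to 0.07. HLA-C differed by 0.03 (-0.03 to 0.09), TAP1 by -0.01 (-0.09 to 0.08) and TAP2 by -0.02 (-0.08 to 0.05). For these 4 genes the groups overlapped, and the intervals exclude a change as large as that of B2M. PSMB8 differed by -0.03 (-0.17 to 0.12) and PSMB9 by 0.03 (-0.18 to 0.23), and the signs of HLA-B, TAP1, TAP2 and PSMB8 turned with library size scaling. In all, 3 of the 9 members were called lower and none higher, in a comparison that called 48.2% of the 14053 genes tested and 24.4% of them lower. The groups did not overlap for these same 3 members, against 42.1% of all genes. The median change of the 9 was -0.02, and that of all genes tested was 0.0014.

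**Figure D2:**
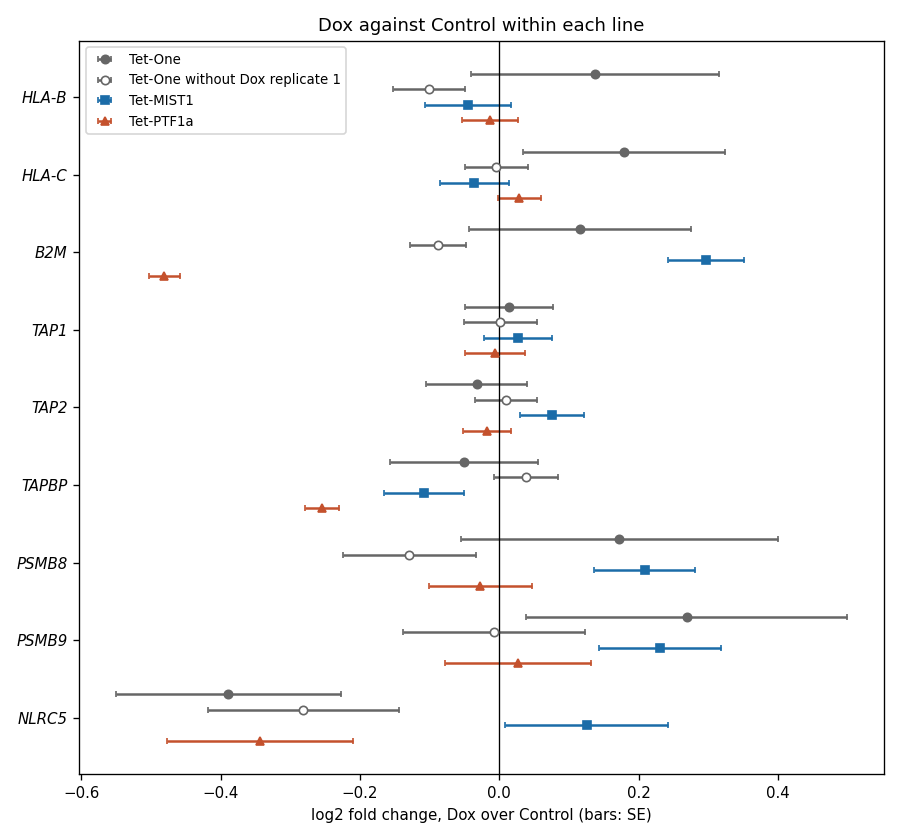
Log2 fold change of Dox over Control for the 9 genes in each line, with SE bars from edgeR's quasi-likelihood fit. B2M lies at 0.30 in Tet-MIST1 and at -0.48 in Tet-PTF1a, and the Tet-One values of HLA-B, HLA-C, B2M, PSMB8 and PSMB9 move from above 0 to below 0 when Dox replicate 1 is left out (open circles).

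In Tet-MIST1 cells B2M rose with Dox and no other member passed the test. B2M was at 517, 575, 551 and 553 CPM in the Control libraries and at 730, 652, 699 and 625 CPM in the Dox libraries, with no overlap. The log2 fold change was 0.30 (SE 0.05, FDR 0.00348, edgeR), or 1.23-fold. PSMB8 was at 30.5, 32.4, 30.1 and 31.6 CPM with Control and at 42.4, 34.6, 33.1 and 34.3 CPM with Dox. These groups did not overlap, but the difference of 0.21 (SE 0.07) did not pass the test in edgeR (FDR 0.0617). PSMB9 was at 8.08, 8.05, 8.33 and 8.42 CPM with Control and at 11.2, 8.14, 9.30 and 10.0 CPM with Dox, groups that overlapped through Dox replicate 2. Its difference of 0.23 (SE 0.09) did not pass either (FDR 0.0812, edgeR).

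The heavy chains, transporter, tapasin and NLRC5 of Tet-MIST1 cells overlapped between Control and Dox, with differences from -0.11 for TAPBP to 0.13 for NLRC5. The interval of HLA-B was -0.17 to 0.08 and that of HLA-C was -0.13 to 0.06. The comparison called 20.6% of 13623 genes tested, 11.9% higher and 8.77% lower, beside 1 of the 9 members, and the groups did not overlap for 2 of the 9 members and for 26.8% of all genes. The median difference of the 9 was 0.08, and that of all genes -0.0036. Dox replicate 1 of this line, in which short genes were higher than long genes by 0.49 log2 units, was the highest Dox library for HLA-B, HLA-C, B2M, PSMB8 and PSMB9 and the lowest for TAPBP and NLRC5. With the trend of counts with gene length removed, 4 members were called (B2M at 0.17 and TAP2 at 0.17 higher, HLA-B at -0.14 and HLA-C at -0.13 lower). The B2M call was lost only in the fit of all 24 libraries (FDR 0.0624), and its change ranged from 0.26 to 0.33 as each of the 8 libraries was omitted. Without Dox replicate 2, PSMB8 (0.23, FDR 0.0480) and PSMB9 (0.31, FDR 0.0122) were called as well (edgeR), and DESeq2 called PSMB8 too (FDR 0.0450).

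In Tet-One cells, which measure doxycycline without a transgene, none of the 9 members passed the test. The comparison called 0 of 13428 genes (0% of those tested) by edgeR, with 401 at an unadjusted p under 0.05, and of the 9 members 1 (NLRC5) had an unadjusted p under 0.05 and DESeq2 called none. B2M was at 397, 374, 389 and 367 CPM in the Control libraries and at 576, 343, 373 and 360 CPM in the Dox libraries. Dox replicate 1 was far above the other libraries, and of the other 3, replicates 2 and 4 lay below all 4 Control libraries and replicate 3 among them. HLA-B was at 35.1, 36.4, 36.5 and 36.0 CPM with Control and at 57.5, 35.1, 31.3 and 34.1 CPM with Dox. The same library was the highest for HLA-C, PSMB8 and PSMB9 and the lowest for TAP2, TAPBP and NLRC5. NLRC5 had the largest difference of the 9 (-0.39, SE 0.16, 95% interval -0.71 to -0.07), with 2.73, 2.82, 2.38 and 2.35 CPM in Control and 1.51, 2.53, 1.91 and 1.88 CPM in Dox, groups that overlapped through Dox replicate 2. The groups overlapped for all 9 members, and did not for 2.38% of all genes. The median difference was 0.12 over the 9 members and 0.0039 over all genes. Without Dox replicate 1 no member was called, NLRC5 stood at -0.28, and the differences of HLA-B (-0.10), HLA-C (-0.0039), B2M (-0.09), TAP2 (0.01), TAPBP (0.04), PSMB8 (-0.13) and PSMB9 (-0.01) had the opposite sign.

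Whether the lines responded differently to Dox in these genes was tested by the interaction term between line and Dox. Each transgene was carried by 1 line, so that transgene, clone, passage and library handling cannot be told apart in these differences. B2M was the member that separated the responses. Its response was lower in Tet-PTF1a than in Tet-MIST1 by 0.77 (SE 0.06, FDR 3.53e-09) on the log2 scale and lower in Tet-PTF1a than in Tet-One by 0.60 (SE 0.17, FDR 0.0253), both by edgeR's quasi-likelihood test. The difference from Tet-One narrowly missed the threshold without Tet-PTF1a Dox replicate 3 (FDR 0.0511) or without Tet-One Control replicate 2 (FDR 0.0550), 3 (FDR 0.0522) or 4 (FDR 0.0565), and without Tet-One Dox replicate 1 it was 0.39 lower with an FDR of 2.45e-08. NLRC5 responded lower in Tet-PTF1a than in Tet-MIST1 by 0.46 (SE 0.17, FDR 0.0407), a call lost in DESeq2, with library size scaling, with a replicate block, in the fit of all 24 libraries and in 12 of the 16 fits that left out 1 library. Against Tet-One the response of NLRC5 in Tet-PTF1a differed by 0.05 (95% interval -0.33 to 0.42), so that its fall in Tet-PTF1a was not told apart from the change in the empty-plasmid line.

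The response of TAPBP in Tet-PTF1a was 0.20 lower than in Tet-One (SE 0.11, FDR 0.285, edgeR) and 0.29 lower, past the threshold, without Tet-One Dox replicate 1 (FDR 3.79e-05). Against Tet-MIST1 it was 0.13 lower (SE 0.06, FDR 0.10), and past the threshold without Tet-MIST1 Dox replicate 1 (-0.17, FDR 0.00374). In Tet-MIST1 against Tet-One no member was called by edgeR or DESeq2, and 1 (NLRC5, higher by 0.51, FDR 0.324) had an unadjusted p under 0.05. The response of B2M was higher there by 0.17 (SE 0.17, FDR 0.855), and by 0.39 (FDR 0.00173) without Tet-One Dox replicate 1. These comparisons called 2 members of 9, both lower, beside 36.4% of genes, 17.8% higher and 18.6% lower, in Tet-PTF1a against Tet-MIST1. In Tet-PTF1a against Tet-One they called 1 member, lower, beside 12.9% of genes, 5.52% higher and 7.36% lower. In Tet-MIST1 against Tet-One they called no member beside 1.66% of genes, 1.48% higher and 0.187% lower. Each pair of comparisons shares the libraries of 1 line.

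Among the Control libraries, all 9 members were higher in Tet-MIST1 than in Tet-One. The lines came from screened clones and were tabulated apart, so that transgene, clone, passage and library handling cannot be told apart here. The immunoproteasome subunit PSMB8 differed most, at 7.03, 7.67, 6.22 and 7.31 CPM in Tet-One and 30.5, 32.4, 30.1 and 31.6 CPM in Tet-MIST1, or 4.44-fold (log2 2.15, SE 0.06, FDR 9.15e-20, edgeR). HLA-B was 2.74-fold higher, at 35.1 to 36.5 CPM in Tet-One and 93.9 to 101 CPM in Tet-MIST1. PSMB9 was 2.60-fold and TAP1 2.13-fold higher. The groups of these 4 genes lay far apart and none overlapped.

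NLRC5 (1.66-fold), HLA-C (1.64-fold), TAP2 (1.63-fold) and B2M (1.44-fold) were higher by less, and TAPBP by 1.14-fold (log2 0.18, SE 0.04, FDR 4.89e-05, edgeR). TAPBP ranged from 155 to 177 CPM in Tet-One and from 183 to 194 CPM in Tet-MIST1, close but not overlapping. The comparison called 81.7% of 13522 genes, 40.3% higher and 41.4% lower, and groups did not overlap for 74.9% of genes. The median difference of the 9 members was 0.73 on the log2 scale and that of all genes was -0.0064. All 9 were called under each alternative run. The Dox libraries of Tet-MIST1 stood above the Control libraries of Tet-One as well, for example HLA-B at 87.1 to 107 CPM.

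**Figure D3:**
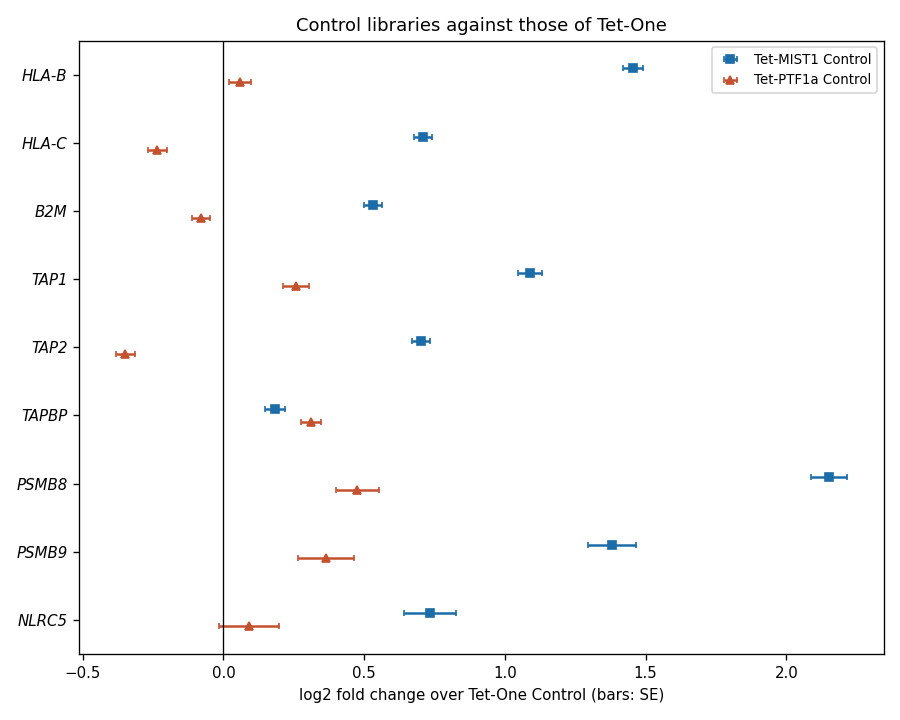
Log2 fold change of Tet-MIST1 Control and Tet-PTF1a Control over Tet-One Control for the 9 genes, with SE bars from 1 edgeR fit of the 12 Control libraries. All 9 squares (Tet-MIST1) lie above 0, from 0.18 for TAPBP to 2.15 for PSMB8, while the triangles (Tet-PTF1a) lie between -0.35 and 0.48.

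Tet-PTF1a Control cells differed from Tet-One Control cells in both directions. PSMB8 (log2 0.48, SE 0.08), PSMB9 (0.36, SE 0.10), TAPBP (0.31, SE 0.04) and TAP1 (0.26, SE 0.05) were higher, and TAP2 (-0.35, SE 0.03), HLA-C (-0.24, SE 0.03) and B2M (-0.08, SE 0.03) were lower. With library size scaling the difference of B2M was 0.0024 and not called while HLA-B was called higher (0.14, FDR 0.00205), and the call of B2M was also lost without Tet-One Control replicate 1 or 3 or Tet-PTF1a Control replicate 2 or 3, with differences of -0.06 to -0.07. The calls of B2M and PSMB9 (FDR 0.0525) were lost in the fit of all 24 libraries. HLA-B (0.06, 95% interval -0.02 to 0.14) and NLRC5 (0.09, -0.12 to 0.30) did not pass the test. The 2 subunits of the transporter thus stood on opposite sides of the Tet-One level. With 4 members called higher and 3 lower, 7 of 9 passed the test beside 80.1% of all genes, 40.2% higher and 39.9% lower. The groups did not overlap for 6 of the 9 members and for 73.8% of genes.

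Against Tet-MIST1 Control cells, those of Tet-PTF1a had 8 members lower, from B2M at -0.61 (SE 0.03) and NLRC5 at -0.64 (SE 0.10) to PSMB8 at -1.68 (SE 0.06). TAPBP alone was higher (0.13, SE 0.04, FDR 0.00227, edgeR), and its call was the one lost among alternatives (FDR 0.0708 in the fit of all 24 libraries). The comparison called 85.1% of genes, 42.3% higher and 42.9% lower, and all 9 members were without overlap beside 81.5% of genes. The order of the Control groups was therefore Tet-MIST1 first for 8 members, while for TAPBP it was Tet-PTF1a, Tet-MIST1 and Tet-One. Tet-PTF1a and Tet-One did not pass the test for HLA-B and NLRC5, and their libraries overlapped for B2M, PSMB9 and NLRC5.

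Ratios within a library set aside the scaling between libraries. HLA-B had 40.8% ± 0.4 of the CPM of HLA-C in Tet-One Control, and 68.4% ± 2.3 in Tet-MIST1 Control (SD, n = 4 each), and between 48.8% and 51.3% in the 4 libraries of Tet-PTF1a Control. With Dox the means were 39.2%, 67.8% and 48.4% in the same order. The heavy chain pair thus stood in a different balance in each line. PSMB8, which takes the place of the constitutive subunit PSMB5, had 3.10% ± 0.20 of the CPM of PSMB5 in Tet-One Control, 13.7% ± 0.3 in Tet-MIST1 Control and 7.53% ± 0.86 in Tet-PTF1a Control. With Dox these were 3.01%, 15.5% and 7.29%. PSMB9 relative to PSMB6, the subunit it replaces, was at 2.37% ± 0.27, 3.12% ± 0.06 and 5.30% ± 0.58 in the same Control groups. PSMB6 itself was 1.98-fold higher in Tet-MIST1 than in Tet-One Control libraries and PSMB5 was 1.00-fold. TAP1 had 42.3% ± 1.2, 55.3% ± 1.8 and 64.3% ± 1.8 of the CPM of TAP2. These are descriptions without a test.

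The genes around the 9 members were counted in lists of the pathway. Of the non-classical heavy chains HLA-G was not listed. HLA-F rose in Tet-PTF1a with Dox by 0.47 (SE 0.10, FDR 6.29e-05, edgeR), while HLA-E differed by -0.05 and was not called. Neither was called in Tet-MIST1 or Tet-One. In Tet-One HLA-F differed by 0.24 with Dox (SE 0.26, FDR 0.897, edgeR), in the same direction as in Tet-PTF1a. Among Control libraries HLA-E was 1.82-fold and HLA-F 5.22-fold higher in Tet-MIST1 than in Tet-One.

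The activator subunits of PA28 fell with Dox in Tet-PTF1a, PSME1 by 0.23 (SE 0.04, FDR 3.45e-07) and PSME2 by 0.13 (SE 0.03, FDR 0.000905, edgeR), while the remaining immunoproteasome subunit PSMB10 differed by -0.13 and was not called. None of these 3 was called in Tet-MIST1. The constitutive catalytic subunits PSMB5, PSMB6 and PSMB7 were not called in either line. Of 11 other subunits of the proteasome core, 2 rose (PSMB2 by 0.18 and PSMA3 by 0.11) and 1 fell (PSMA6 by 0.07) in Tet-PTF1a, and 1 rose in Tet-MIST1 (PSMA3 by 0.31). The peptidases that trim peptides were split in Tet-PTF1a, with NPEPPS (0.25) and ERAP1 (0.19) higher and THOP1 (-0.16) and TPP2 (-0.10) lower of 7, and none was called in Tet-MIST1. Of 6 chaperones that serve peptide loading and heavy chain folding, 4 rose in Tet-PTF1a, HSPA5 by 0.25, UGGT1 by 0.16, CALR by 0.11 and PDIA3 by 0.11, and none was called in Tet-MIST1. The background in Tet-PTF1a was 23.8% of genes higher and 24.4% lower. Against Tet-One, 0 of PSMB10, PSME1 and PSME2 were called in their response in Tet-PTF1a. Nor were the 3 constitutive or the 11 other core subunits. Of the 7 peptidases 1 was called higher and 1 lower, and of the 6 chaperones 1 was called higher. Over all genes these shares were 5.52% higher and 7.36% lower. In Tet-MIST1 against Tet-One 0 genes of these lists were called (1.66% of all genes).

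**Figure D4:**
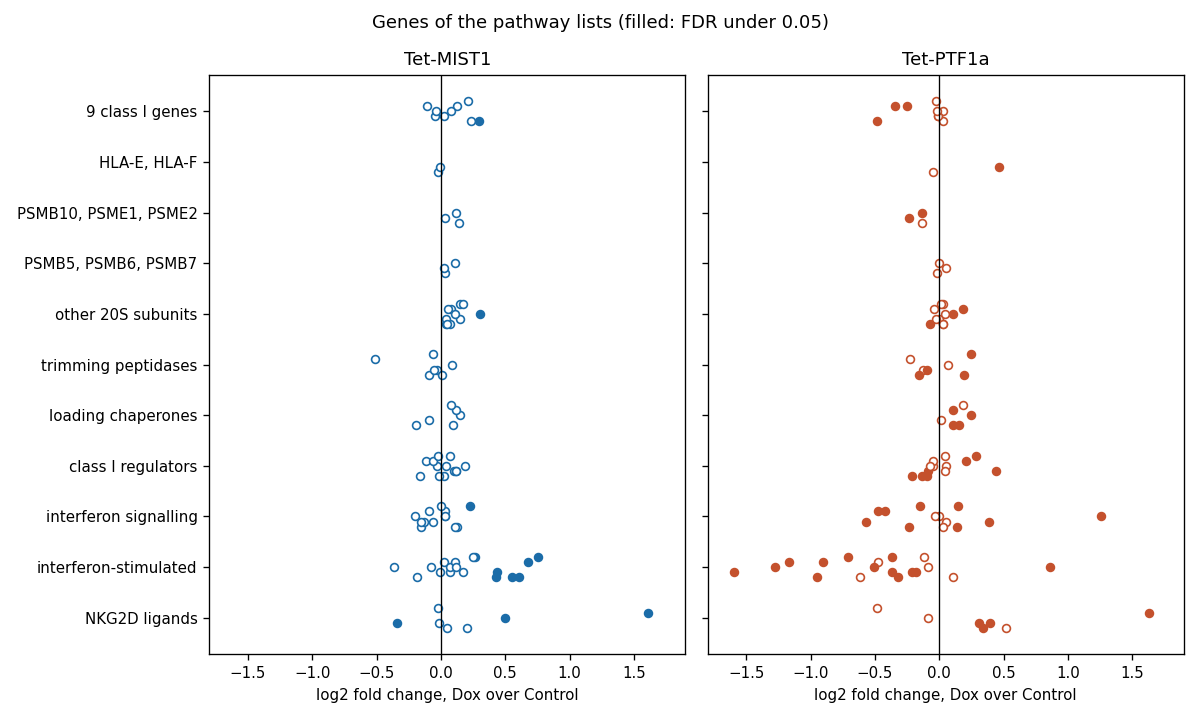
Log2 fold change of Dox over Control for the genes of the pathway lists in Tet-MIST1 and Tet-PTF1a, filled where the FDR was under 0.05 by edgeR. The interferon-stimulated genes lie mostly to the right in Tet-MIST1 (median 0.15) and to the left in Tet-PTF1a (median -0.42).

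Of 13 listed regulators of class I genes tested, 3 rose in Tet-PTF1a, the interferon regulatory factor IRF1 by 0.44 (SE 0.06), RELB by 0.29 and NFKB1 by 0.21, and 4 fell, CREB1 by 0.21, RFX5 by 0.13, NFYA by 0.10 and NFYB by 0.09. None was called in Tet-MIST1. Among 13 genes of interferon reception and signaling, Tet-PTF1a had 4 higher and 5 lower, with STAT3 (-0.57), IFNGR2 (-0.42), SOCS3 (-0.48) and JAK1 (-0.24) having the smallest FDR, and Tet-MIST1 had 1 higher (IRF9 by 0.22). Over all genes, 23.8% were called higher and 24.4% lower in Tet-PTF1a, and 11.9% and 8.77% in Tet-MIST1. Against Tet-One, the response in Tet-PTF1a was called for 1 of the 13 regulators, higher, and 3 of the 13 signaling genes, lower. The shares of all genes were 5.52% higher and 7.36% lower there. In Tet-MIST1 against Tet-One 0 genes of either list were called (1.66% of all genes).

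Interferon-stimulated genes, of which 18 of 21 were tested, rose in 7 cases and fell in none with Dox in Tet-MIST1 (median 0.15, beside -0.0036 for all genes). Of all genes 11.9% were called higher there and 8.77% lower. The smallest FDR belonged to IFI6 (0.75, SE 0.08), IRF7 (0.56, SE 0.07), IFIT1 (0.43, SE 0.08) and ISG15 (0.43, SE 0.09). IFI6 and ISG15 have exons of 860 and 666 bases in all, IRF7 and IFIT1 of 2138 and 4728. Short genes were high in Tet-MIST1 Dox replicate 1, and the part of this in these changes was not tested. In Tet-PTF1a 12 fell and 1 rose (median -0.42), with IFITM1 (-1.17, SE 0.04), IFIT2 (-1.59, SE 0.06), IFIT1 (-0.95, SE 0.05) and IFIT3 (-1.28, SE 0.07) first, and GBP2 (0.86) the one that rose. Of all genes 24.4% were called lower there and 23.8% higher. Between these lines the responses differed for 15 of the 18, 14 lower and 1 higher in Tet-PTF1a (18.6% and 17.8% of all genes). Against Tet-One, 0 of the 18 responses were called in Tet-MIST1 (1.66% of all genes). In Tet-PTF1a 6 were called lower and 0 higher against Tet-One (7.36% and 5.52% of all genes). Among Control libraries 15 of the 18 were higher and 3 lower in Tet-MIST1 than in Tet-One (median 1.38), and in Tet-PTF1a 15 were higher and 2 lower (median 1.38). Over all genes these shares were 40.3% higher and 41.4% lower in Tet-MIST1, and 40.2% and 39.9% in Tet-PTF1a. With Dox, B2M was called higher in Tet-MIST1 and lower in Tet-PTF1a, as most called interferon-stimulated genes were. HLA-B, HLA-C, TAP1 and TAP2 were not called in either line. With all libraries, the B2M response in Tet-MIST1 was not told apart from that in Tet-One. A part of interferon signaling in these changes was not tested.

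Ligands of the NKG2D receptor are stress proteins related to class I heavy chains. Of them RAET1G rose in both lines, by 1.61 (SE 0.11) in Tet-MIST1 and 1.63 (SE 0.19) in Tet-PTF1a. In Tet-MIST1 2 of 7 rose (also RAET1E by 0.50) and 1 fell (ULBP3 by 0.34), and in Tet-PTF1a 4 of 7 rose (also MICB by 0.31, MICA by 0.34 and ULBP3 by 0.39). Of all genes 11.9% rose and 8.77% fell in Tet-MIST1, and 23.8% rose in Tet-PTF1a. Against Tet-One, the response was called higher for 3 of the 7 ligands in Tet-PTF1a (5.52% of all genes). It was called higher for 1 of the 7 in Tet-MIST1 (1.48% of all genes), and lower for 0 in both. Of the marker lists, KRT8 and KRT19 fell by 1.30 and 1.07 in Tet-PTF1a with Dox, while KRT7 rose by 1.69. The 2 listed leukocyte genes of 6, CD68 and CD14, fell by 0.97 and 0.76, and CD68, a lysosomal protein also made outside leukocytes, was at 29.8 CPM or more in every library. Of the class II list, CTSS, a lysosomal protease, rose in Tet-MIST1 (0.41, FDR 0.0265, edgeR) and in Tet-PTF1a (1.02, FDR 1.75e-05, edgeR). HLA-DMA rose in Tet-PTF1a (0.90, FDR 0.00505, edgeR), and CD74, the invariant chain, was at 0.171 to 1.43 CPM. Against Tet-One, 0 of 3 class II genes tested were called in Tet-PTF1a (12.9% of all genes) and 0 of 4 in Tet-MIST1 (1.66%). The part of other cell types in the values of the 9 members was not tested, and the defining leukocyte genes PTPRC and CD3E were not listed.

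Across all 24 libraries, the mean standardized profile of the 9 members was most like those of GPRC5C (Pearson r 0.993), COL13A1 (0.992), STMN3 (0.992), WNT5B (0.991) and GLRX (0.989), out of 12969 genes compared. All 5 were high in the Tet-MIST1 libraries, for example WNT5B at 82.4 CPM in Tet-MIST1 Control and 14.1 CPM in Tet-One Control. The likeness therefore rests on 1 line against 2, the libraries of a group share a line, and r is a description. Within the 9 members PSMB8 and PSMB9 were most alike (r 0.979 over 24 libraries), followed by HLA-B and PSMB8 (0.976), whereas TAPBP ran apart, with r 0.03 to HLA-B and -0.21 to HLA-C.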

How the data were processed

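RNA-seq of 24 libraries was used. Per the labels and the study's methods the authors aligned reads to hg19, and the processing notes name TopHat, HTSeq, DESeq and edgeR. The authors deposited 3 tables with a count of reads per gene, not normalized, in 13879 (Tet-One), 13879 (Tet-MIST1) and 14053 (Tet-PTF1a) genes kept by their filter (above 0.5 CPM in at least 4 samples). Their CPM and their own comparisons of Dox with Control (log2 fold change, p-value and FDR) were not used. The counter's settings, its annotation and its use of strand are not given in the sources used here.

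From the deposited counts, each comparison was fitted with edgeR 4.0.16 in R 4.3.3 by the two-sided quasi-likelihood test (robust, TMM, Benjamini-Hochberg over all genes tested, FDR under 0.05), on genes above 0.5 CPM in at least 4 libraries. Dox was compared with Control within a line (8 libraries), responses as an interaction (16 libraries), and lines without Dox in 1 fit of 12 Control libraries. CPM in the text are these counts scaled by TMM over all 24 libraries. Intervals are 95%, as 1.96 SE. Alternatives were DESeq2 1.42.0, library size and upper quartile scaling, no filter or at least 10 counts in every library, a replicate block, all 24 libraries in 1 fit, a removed trend with gene length, and each library left out. The fits were checked on simulated counts. In 36 replicate pairs the chi-square per degree of freedom ran from 1.39 to 238, so none agreed within sampling noise. Same-numbered libraries did not deviate together, and the block is an alternative.

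The 9 members and the gene lists were chosen with earlier results of these data known. All 9 members are named, with up to 4 genes a list (those with the smallest FDR in Tet-MIST1 or Tet-PTF1a) and the 5 genes most like the members. Genes named beyond that were chosen after their values were seen. Some listed genes are not reported here. Promoters were 250 bases before RefSeq starts on GRCh38.p14.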

Additional observations from a re-analysis of the deposited data

Results flagged for a closer look

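Of 54 sets of 4 libraries (9 members in 6 groups), 5 held a value set apart from the other 3 beyond Dixon's 95% critical value, and chance flags about 1 in 20 such sets. Tet-One Dox replicate 1 was the high value for HLA-B (57.5 CPM against 31.3 to 35.1) and B2M (576 CPM against 343 to 373). Tet-MIST1 Dox replicate 1 was high for PSMB8 (42.4 CPM against 33.1 to 34.6). Tet-MIST1 Control replicate 4 was high for HLA-C (149 CPM against 141 to 142), and Tet-PTF1a Dox replicate 1 for TAP1 (36.8 CPM against 33.5 to 34.1). Short genes were higher than long genes in Tet-One Dox replicate 1 (by 1.37 log2 units) and Tet-MIST1 Dox replicate 1 (by 0.49), and the part of this in the values was not tested.

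The effect of Dox differed between lines, by the interaction test of edgeR, in 3 cases. B2M responded lower in Tet-PTF1a than in Tet-One (-0.60, FDR 0.0253) and than in Tet-MIST1 (-0.77, FDR 3.53e-09), and NLRC5 responded lower in Tet-PTF1a than in Tet-MIST1 (-0.46, FDR 0.0407).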

How the results depend on the processing

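Most counts of members called stayed within 1.5 times of the values given, and the exceptions follow, with causes that were not tested. In Tet-MIST1 with Dox the count was 2 with DESeq2, 0 in 1 fit of all 24 libraries and 4 with the length trend removed, and ranged from 1 to 3 with 1 library left out. In the response of Tet-PTF1a against Tet-MIST1 it was 1 with DESeq2, library size scaling, the replicate block and the fit of all 24 libraries, and ranged from 1 to 3 with 1 library left out. It ranged from 0 to 2 in Tet-PTF1a against Tet-One and from 0 to 1 in Tet-MIST1 against Tet-One. The signs that turned belonged to differences that were not called, except B2M in Tet-PTF1a against Tet-One Control libraries, called at -0.08 and at 0.0024 with library size scaling. That scaling also gave -0.012 for TAP1 with Dox in Tet-One, 0.024, 0.031, 0.020 and 0.010 for HLA-B, TAP1, TAP2 and PSMB8 with Dox in Tet-PTF1a, and 0.049 and 0.016 for the response of TAP1 in Tet-PTF1a against Tet-One and Tet-MIST1. With the length trend removed HLA-B, B2M and TAP2 were at -0.0078, -0.069 and 0.063 with Dox in Tet-One. With 1 library left out, the log2 differences for Dox in Tet-One ran over HLA-B -0.10 to 0.23, HLA-C -0.0039 to 0.26, B2M -0.088 to 0.19, TAP1 -0.0047 to 0.042, TAP2 -0.071 to 0.0095, TAPBP -0.093 to 0.039, PSMB8 -0.13 to 0.30 and PSMB9 -0.0077 to 0.40. With 1 library left out, the log2 differences for Dox in Tet-PTF1a ran over HLA-B -0.052 to 0.013, TAP1 -0.036 to 0.032, PSMB8 -0.078 to 0.027 and PSMB9 -0.011 to 0.075. With 1 library left out, the log2 differences for the response in Tet-MIST1 against Tet-One ran over HLA-B -0.28 to 0.061, TAP1 -0.018 to 0.038, PSMB8 -0.10 to 0.34 and PSMB9 -0.18 to 0.24. With 1 library left out, the log2 differences for the response in Tet-PTF1a against Tet-One ran over HLA-B -0.25 to 0.088, HLA-C -0.23 to 0.035, TAP1 -0.047 to 0.017, TAP2 -0.025 to 0.054, PSMB8 -0.35 to 0.098, PSMB9 -0.38 to 0.036 and NLRC5 -0.060 to 0.20. With 1 library left out, the log2 differences for the response in Tet-PTF1a against Tet-MIST1 ran over HLA-B -0.013 to 0.11 and TAP1 -0.067 to 0.0049. Same-numbered Control and Dox libraries did not deviate together (correlations of -0.43 to 0.38, and of 12 numbers 1, replicate 4 of Tet-PTF1a, matched best with its own), so the numbers were not taken as pairs. The replicate block changed 1 call among the members, that of NLRC5 in the response of Tet-PTF1a against Tet-MIST1 (-0.44, FDR 0.0509 in edgeR). Over all genes tested, the number called with Dox in Tet-MIST1 was 2812, but 1463 with the replicate block and 1707 in the fit of all 24 libraries, which also gave 3131 in place of 6775 in Tet-PTF1a and 2719 in place of 4920 for the response of Tet-PTF1a against Tet-MIST1. For the response of Tet-MIST1 against Tet-One it was 231, but 499 with DESeq2, 83 with the replicate block and 530 in the fit of all 24 libraries. Library size scaling moved the median of all genes by less than 0.1 in each comparison. In all, 506 of 540 values under the other alternatives, and 987 of 1080 with 1 library left out, kept their direction and side of the threshold, or stayed within 1.5 times for counts. Depth limits NLRC5 (39 to 207 counts a library) and PSMB9 (74 to 442) most.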
